A study of Homo sapiens with 8 samples.

Results

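The vector control and the siRNA control of Huh7, a human hepatocellular carcinoma cell line, were compared with each other. The 4 libraries are 4 of the 8 in the series: 2 from cells that received the control MYC vector, a plasmid coding for the MYC tag without UPF1 (MYC), and 2 from cells that received a scrambled siRNA (siControl). Per the study's methods both nucleic acids were carried by the same lipid transfection reagent, and polyadenylated RNA was sequenced from stranded libraries. Each pair was made as the control of its own experiment, MYC for the MYC-UPF1 overexpression libraries and siControl for the siUPF1 depletion libraries. The type of nucleic acid, the experiment and everything else that separates the experiments therefore cannot be told apart, and no untransfected library was analysed here. The tables of both experiments were joined on gene symbol, and 13359 of the 17076 listed genes had a mean of at least 0.5 FPKM (fragments per kilobase of exon, scaled to the mapped fragments of the library) over the 4 libraries. Nothing says whether replicates came from separate cultures, so the p-values measure only the spread between these libraries.

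Huh7 cells keep much of a fetal hepatocyte programme: they make plasma proteins in bulk, chief among them alpha-fetoprotein and albumin, under transcription factors of the HNF1, HNF4 and C/EBP families. Lipid carriers with nucleic acid enter cells by endocytosis, and cells can meet foreign DNA or RNA with sensors that act through interferon and NF-kB, while metals, oxidants and lipid supply are read by MTF1, NRF2 and the SREBP factors. Gene groups for each of these systems were followed. Differences are given as the log2 difference of FPKM + 1, MYC minus siControl, so a positive value is a higher level in MYC, and for genes of a few FPKM or less it understates the change. A gene was called where the Benjamini-Hochberg adjusted p of limma was under 0.05, and every adjusted p below comes from that fit.

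The libraries of each group were close to each other. Across all 17076 genes, log2(FPKM + 1) correlated at 0.9961 between the MYC libraries and at 0.9964 between the siControl libraries, and at 0.9865 to 0.9916 between a MYC and a siControl library. Median FPKM was 3.74 and 3.81 in MYC and 3.92 and 4.06 in siControl. A pair of libraries stood apart in different ways. In siControl replicate 1, 42 genes were at least 4-fold higher than in siControl replicate 2, of which 26 were small RNA genes, against 10 genes in the opposite direction, and 17 of the 42 were called. In MYC replicate 2, the deviation of a gene from its mean over all 8 libraries followed the GC content of its transcript, with a Spearman correlation across genes of 0.678, against -0.021 in MYC replicate 1 and -0.549 and -0.558 in the siControl libraries. Where leaving out 1 library ended the call of a named gene, or moved the count or the median of a list by more than 1.5 times, the value without it is given beside the result.

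Most genes were close in level between the controls, and the differences that were called were many but small. At an adjusted p under 0.05, 3883 of 13359 genes (29.1%) differed, of which 1437 (10.8%) were higher and 2446 (18.3%) lower in MYC, and 5468 (40.9%) had an unadjusted p under 0.05. The median difference was 0.42 among the genes higher in MYC and -0.41 among those lower, and over all genes it was -0.057. Differences beyond 1 on the log2 scale were found for 10 genes in the positive and 62 in the negative direction. For 13124 genes (98.2%) the 95% confidence interval lay wholly inside -1 to 1, and for 8681 genes (65.0%) inside -0.5 to 0.5. The split between directions depended on scaling: 37.01% of the calls were higher in MYC as deposited, 52.8% after quantile normalization and 61.3% after median centring. The counts were also sensitive to single libraries: 1312 genes were called without siControl replicate 1 and 1237 without siControl replicate 2, against 5792 without MYC replicate 1 (2543 higher). With no FPKM minimum 1310 genes were called and with all 8 libraries in 1 fit 2390, and of the 113 called genes named below these settings lost 44 and 26. The exact permutation test of 2 libraries against 2 cannot go below p = 0.333, so no single gene was tested that way.

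**Figure D1:**
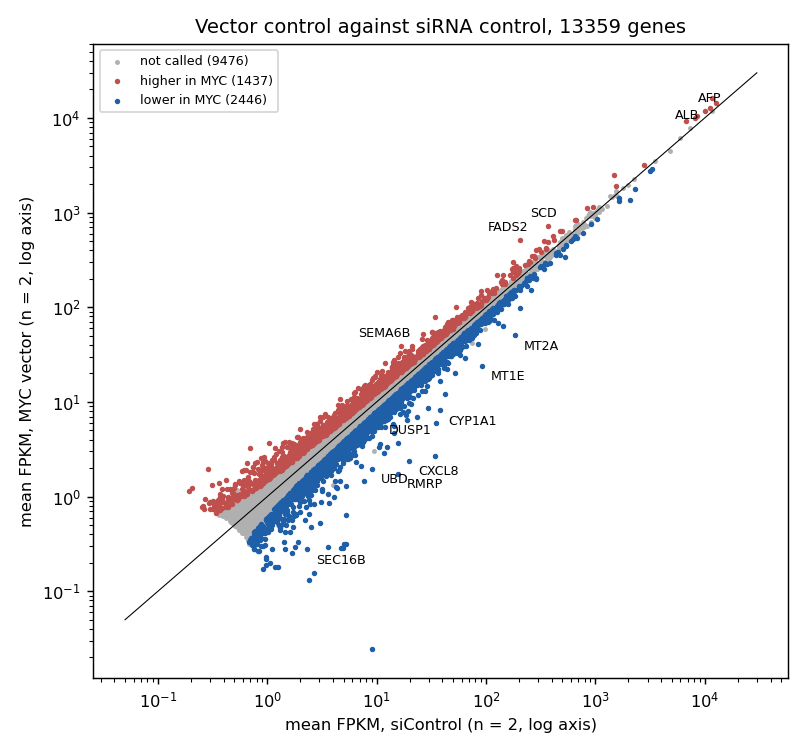
Mean FPKM of the 2 MYC libraries (y axis, log scale) against mean FPKM of the 2 siControl libraries (x axis, log scale) for 13359 genes. Red points are the 1437 genes called higher in MYC, blue points the 2446 called lower and grey points the 9476 not called; AFP and ALB lie on the diagonal, and CXCL8, CYP1A1 and the metallothioneins MT1E and MT2A lie below it.

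A part of these calls moved with base composition. Across 12683 genes with an annotated transcript, the log2 difference had a Spearman correlation of 0.571 with transcript GC content and of 0.083 with transcript length. Among genes in the lowest decile of GC content (29.2 to 38.2%), 46.3% were lower and 1.10% higher in MYC, and in the highest decile (61.3 to 86.4%), 2.05% were lower and 34.6% higher. Between the treated libraries of the same experiments, MYC-UPF1 and siUPF1, the same correlation with GC content was 0.047. Single treated libraries did follow GC content, with opposite signs within each group. The deviation from the mean over all 8 libraries correlated at 0.513 and -0.230 in MYC-UPF1 replicates 1 and 2. In siUPF1 replicates 1 and 2 it correlated at -0.327 and 0.383. After a loess trend on GC content and length was taken out of each library (GC and length correction), 3082 of 12683 genes were called, 1886 of them shared with the 3883, and 51.3% of the calls were higher in MYC. Counts or medians after this correction are given below beside most gene groups. Over the 15 alternative settings that were run, 361 genes (158 higher and 203 lower in MYC) were called in the same direction in every one; genes below a mean of 5 FPKM or without an annotated transcript could not be among them.

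**Figure D2:**
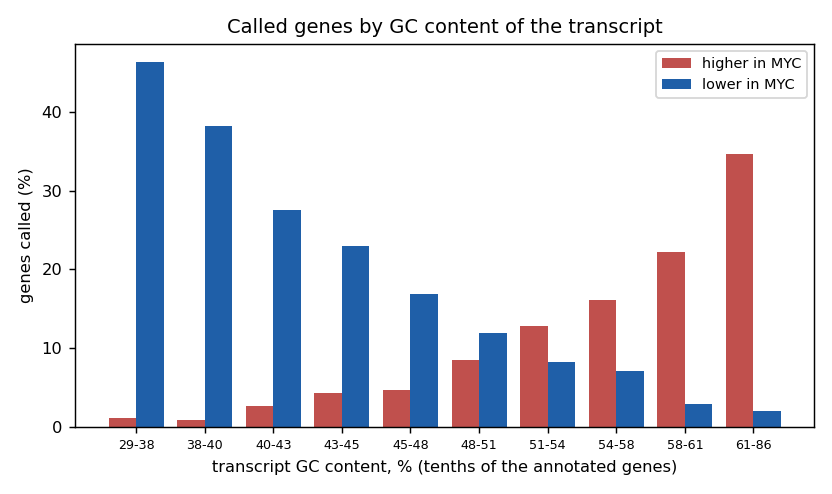
Share of genes called (y axis, percent) in each decile of transcript GC content (x axis, percent GC). Red bars, higher in MYC; blue bars, lower in MYC: the share lower falls from 46.3% to 2.05% and the share higher climbs from 1.10% to 34.6% between the lowest and the highest decile.

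AFP and ALB, which code for alpha-fetoprotein and albumin, were among the most abundant mRNAs of both control states. AFP lies at chr4:74296855-74321891 (plus strand) of GRCh37, and was at 12505 and 11093 FPKM in MYC and 11130.4 and 12217 FPKM in siControl. The groups overlapped, with a log2 difference of 0.014 and a 95% interval of -0.11 to 0.14. ALB, its neighbour at chr4:74262831-74287199 (plus strand), was at 8371 and 7419 FPKM in MYC and 6971 and 7668 FPKM in siControl, and its difference was 0.11 (SE 0.0616, adjusted p = 0.193). The highest of the 4 values of either gene stood in MYC replicate 1. The call for this pair turned on the processing: after GC and length correction both were called higher in MYC, at 0.31 (adjusted p = 0.0197) and 0.37 (adjusted p = 0.0120), and after quantile normalization both were called lower, at -0.11 (adjusted p = 0.0216) and -0.18 (adjusted p = 0.00181). The promoter stretches below show the match to GTTAATNA, read on both strands as the core of an HNF1 site, in capitals. They come from RefSeq (GRCh38.p14), are written 5′ to 3′ on the gene's strand and end at the base before the start site, and 2.20% of all 27305 promoters hold this motif in their 250 upstream bases, against 3 of 19 of the secreted protein list (AFP, ALB and the fibrinogen gene FGA).
AFP (chr4:73436071-73436220, plus strand): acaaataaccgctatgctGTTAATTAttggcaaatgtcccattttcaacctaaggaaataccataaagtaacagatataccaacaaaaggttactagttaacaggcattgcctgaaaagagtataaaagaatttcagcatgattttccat
ALB (chr4:73404187-73404286, plus strand): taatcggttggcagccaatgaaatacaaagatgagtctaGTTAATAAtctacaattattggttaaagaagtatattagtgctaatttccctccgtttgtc

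Secreted liver proteins as a group stood slightly higher in MYC. All 26 members were measured, of which 9 were called higher and 2 lower, where 10.8% of all genes were higher and 18.3% lower. The median difference was 0.17, against -0.057 over all genes, and 0.28 after GC and length correction. The counts were 10 higher and 0 lower without MYC replicate 2, 5 higher and 1 lower without siControl replicate 1 and 10 higher and 0 lower without siControl replicate 2, and 4 and 0 with no FPKM minimum. The largest were A1BG, a plasma glycoprotein, at 14.5 and 15.8 against 7.65 and 7.94 FPKM, transferrin (TF), the iron carrier, at 153 and 147 against 96.4 and 106 FPKM, and ITIH2, an inter-alpha-trypsin inhibitor heavy chain, at 591 and 536 against 395 and 426 FPKM. Their differences were 0.87 (SE 0.109, adjusted p = 1.32e-05), 0.57 (SE 0.0872, adjusted p = 1.25e-04) and 0.46 (SE 0.0770, adjusted p = 3.03e-04). SERPINA1, alpha-1-antitrypsin, was higher by 0.43 (SE 0.0681, adjusted p = 1.65e-04). These 4 genes were called higher in all 15 alternatives. APOH, a phospholipid-binding plasma protein, was lower, at 133 and 110.4 against 151 and 164 FPKM, a difference of -0.38 (SE 0.0945, adjusted p = 0.00597), but was at -0.11 (adjusted p = 0.335) after GC and length correction, and its call ended without MYC replicate 2 or siControl replicate 2 (adjusted p = 0.0649 and 0.113).

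Of 17 measured transcription factors of liver identity 1 was called higher and 2 lower, a share of 17.6% against 29.1% of all genes. Their median was 0.034, but 0.13 without MYC replicate 1 and -0.075 without MYC replicate 2, and -0.044 after GC and length correction. HNF4A, a nuclear receptor that governs hepatocyte genes, was at 41.5 and 48.97 FPKM in MYC and 44.1 and 43.9 FPKM in siControl and had a 95% interval of -0.18 to 0.24. PROX1, a homeobox factor of early liver, was lower, at 15.4 and 14.1 against 19.03 and 20.7 FPKM, -0.41 (SE 0.106, adjusted p = 0.00768). The call of PROX1 ended without siControl replicate 1 or siControl replicate 2 (adjusted p = 0.0736 and 0.213), and the list counts were 4 higher and 2 lower without MYC replicate 1, 3 higher and 2 lower without MYC replicate 2, 0 higher and 0 lower without siControl replicate 1 and 1 higher and 0 lower without siControl replicate 2. Of 13 measured oncofetal and liver cancer genes 4 were higher and 1 lower (38.5%), with a median of 0.058, but -0.018 without MYC replicate 1, 0.00081 without siControl replicate 1 and 0.11 without siControl replicate 2. After GC and length correction 5 were higher and 1 lower. TERT, the catalytic subunit of telomerase, was at 4.04 and 5.096 against 3.17 and 3.45 FPKM (0.37, adjusted p = 0.0307) but at 0.051 (adjusted p = 0.583) after GC and length correction. IGF2BP1, an mRNA-binding protein of fetal tissue, was higher by 0.36 (SE 0.0977, adjusted p = 0.0102) and the surface proteoglycan GPC3 by 0.29 (SE 0.0789, adjusted p = 0.0103). PEG10, a retrotransposon-derived imprinted gene, was lower, at -0.35 (SE 0.0818, adjusted p = 0.00399). None of these 4 was called in every setting. The call of TERT ended without MYC replicate 2, siControl replicate 1 or siControl replicate 2 (adjusted p = 0.110, 0.303 and 0.173), that of IGF2BP1 without MYC replicate 2, siControl replicate 1 or siControl replicate 2 (adjusted p = 0.0649, 0.147 and 0.0828), that of GPC3 without MYC replicate 2 or siControl replicate 1 (adjusted p = 0.0893 and 0.174) and that of PEG10 without siControl replicate 2 (adjusted p = 0.0508), and the counts of this list were 5 higher and 2 lower without MYC replicate 1, 0 higher and 1 lower without MYC replicate 2, 0 higher and 1 lower without siControl replicate 1 and 2 higher and 0 lower without siControl replicate 2.

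Few markers of other cell types had values above the FPKM minimum. Of the fibroblast, leukocyte and endothelial lists (10, 9 and 7 genes), 4, 4 and 1 had values and 2, 3 and 1 passed the FPKM minimum. Of these limma called 0, with 2, 0 and 0 at an unadjusted p under 0.05. Among all genes 29.1% were called and 40.9% had an unadjusted p under 0.05. The 2 fibroblast markers were PDGFRA (0.26, adjusted p = 0.0948) and PDGFRB (0.27, adjusted p = 0.0842). Without MYC replicate 2 PDGFRA was called (0.33, adjusted p = 0.0133), and without MYC replicate 1 limma called 1 leukocyte marker higher. Their summed FPKM was 9.08 to 10.2 in MYC and 7.25 to 8.18 in siControl for fibroblast markers, 183 to 194 and 199.9 to 224 for leukocyte markers, and 0.594 to 0.672 and 0.576 to 0.626 for endothelial markers. Nearly all of the leukocyte sum was LYZ, lysozyme, at 189 and 177 FPKM in MYC and 195 and 219 FPKM in siControl. Of the cholangiocyte and progenitor list 5 of 9 passed, of which 1 was higher, SOX9 (0.41, adjusted p = 0.0120), and 2 were lower, among them SPP1 (-1.02, adjusted p = 6.91e-06), and of the embryonic kidney and neural list only TUBB3 passed, higher at 0.41 (adjusted p = 0.00701). Over all genes 10.8% were higher and 18.3% lower. Leaving out a library ended the call of SOX9 without MYC replicate 2, siControl replicate 1 or siControl replicate 2 (adjusted p = 0.0802, 0.195 and 0.0563) and TUBB3 without siControl replicate 1 (adjusted p = 0.146), and the cholangiocyte counts were 1 higher and 1 lower without MYC replicate 1, 0 higher and 2 lower without MYC replicate 2, 0 higher and 1 lower without siControl replicate 1 and 0 higher and 1 lower without siControl replicate 2. In bulk RNA, fewer cells of a type and less RNA per cell cannot be told apart, and the part of these genes in any other difference was not tested.

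Mitochondrial mRNAs made up more of the FPKM in MYC. Their 13 genes held 23.5% and 22.2% of the summed FPKM in the MYC libraries and 19.3% and 19.9% in the siControl libraries. Of the 13, 9 were called higher and 1 lower, where 10.8% of all genes were higher and 18.3% lower, with a median of 0.21. They had no annotated transcript, so the GC and length correction could not be applied to them. With all 8 libraries in 1 fit the median was the same but 0 of the 13 were called, with no FPKM minimum 1 was higher, and with eBayes without the trend 3 were. COX1, a core subunit of cytochrome c oxidase and the most abundant gene, was at 17236 and 15409 FPKM in MYC and 11168 and 12294 FPKM in siControl, a difference of 0.48 (SE 0.0578, adjusted p = 8.99e-06). ND4L, a subunit of complex I, differed by 0.46 (SE 0.0517, adjusted p = 2.82e-06), and ND4 by 0.31 (SE 0.0556, adjusted p = 5.31e-04). COX2, ATP6 and COX3 were closer, at 0.22, 0.17 and 0.18, and their calls ended without MYC replicate 1 (adjusted p = 0.0687), without MYC replicate 1 or siControl replicate 1 (adjusted p = 0.138 and 0.183) and without MYC replicate 1 or siControl replicate 1 (adjusted p = 0.481 and 0.178), in that order. The adjusted p of COX1, ND4L and ND4 was 0.0785, 0.118 and 0.374 in the fit of all 8 libraries. Without MYC replicate 1 or siControl replicate 1, 6 of the 13 were higher, without siControl replicate 2 0 were lower, and the median was 0.12 without siControl replicate 1. After quantile normalization 3 were higher and 1 lower, with a median of 0.041. Of 36 nuclear-encoded respiratory chain subunits 0 were higher and 7 lower, but 3 higher and 8 lower without MYC replicate 1, 1 higher and 4 lower without MYC replicate 2, 0 higher and 1 lower without siControl replicate 1 and 0 higher and 0 lower without siControl replicate 2. In the main fit the 7 lower were 19.4% of the nuclear-encoded list, close to the 18.3% of all genes that were lower. After GC and length correction 6 of this list were higher and 3 lower. The ferritin light chain FTL and the glycolytic enzyme GAPDH, also among the 20 most abundant genes, differed by -0.090 (interval -0.20 to 0.024) and -0.011 (interval -0.13 to 0.11).

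**Figure D3:**
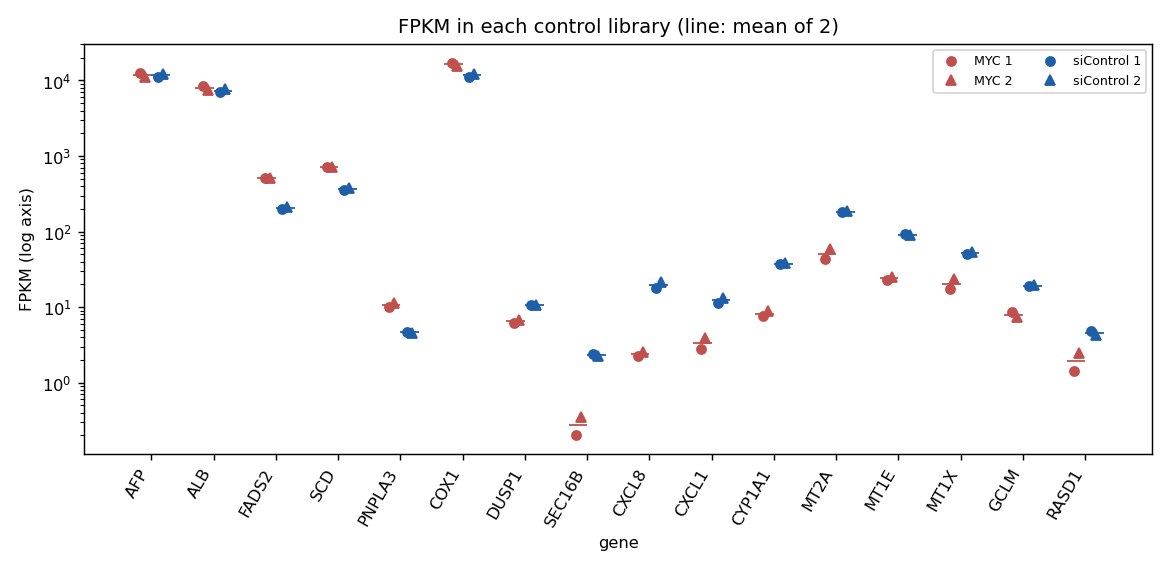
FPKM (y axis, log scale) of 16 genes (x axis) in each control library. Red circles and triangles are MYC replicates 1 and 2, blue ones siControl replicates 1 and 2, and short lines the mean of 2; AFP and ALB overlap between groups, the lipid genes FADS2, SCD and PNPLA3 are higher in MYC, and the metallothioneins, CXCL8, CXCL1, CYP1A1, GCLM, SEC16B, DUSP1 and RASD1 are lower.

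Metallothioneins, small cysteine-rich proteins that bind zinc and copper, had the lowest median of all lists. Of 10 measured members of the list 9 were called lower in MYC and 0 higher, where 18.3% of all genes were lower, and the median difference was -1.40. MT2A, at chr16:56642496-56643409 (plus strand) of GRCh37, was at 43.3 and 58.2 FPKM in MYC and 179.6 and 189 FPKM in siControl. MT1E was at 23.2 and 24.99 FPKM in MYC and 91.5 and 90.5 FPKM in siControl, and MT1F at 10.6 and 13.8 FPKM in MYC and 41.7 and 42.3 FPKM in siControl. In each of these genes the higher MYC library was below the lower siControl library, and the mean was 3.45- to 3.78-fold higher in siControl. The differences were -1.85 (SE 0.109, adjusted p = 2.68e-10), -1.88 (SE 0.0947, adjusted p = 3.57e-11) and -1.72 (SE 0.114, adjusted p = 2.22e-09). MT1M, at 1.24 and 1.69 against 6.18 and 8.98 FPKM, differed by -1.79 (SE 0.142, adjusted p = 2.78e-08), and MT1G and MT1X by -1.48 (adjusted p = 1.78e-07) and -1.32 (adjusted p = 1.06e-07). The zinc exporter SLC30A1, induced by the same factor, was lower, at -0.56 (SE 0.113, adjusted p = 0.00135), while MTF1, the zinc-sensing factor itself, was at 3.06 and 3.62 FPKM in MYC and 3.69 and 3.59 FPKM in siControl with a difference of -0.10 (adjusted p = 0.551). After GC and length correction the count was again 9 and the median -1.35. MT1A, at -0.68, lost its call without siControl replicate 2 (adjusted p = 0.0695), MT1L, at -0.63, without siControl replicate 1 (adjusted p = 0.111) and SLC30A1 without siControl replicate 2 (adjusted p = 0.0851), while MT2A, MT1E, MT1F and MT1X were called in all 15 alternatives. The MT1 genes are close copies of each other, so reads can be split between them in ways the files do not show.

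The upstream stretches of MT2A and MT1X are shown because both genes changed together and carry repeated copies of the core of a metal response element. Capitals mark TGCNCNC, where N is any base, on either strand, and the stretches end at the base before the start site (RefSeq, GRCh38.p14). MT2A held 7 matches in 250 bases, a number reached by 0.0952% of the 27305 promoters, and MT1X held 4, reached by 1.70%. A single match says little, since 48.4% of all promoters hold at least 1.
MT2A (chr16:56608334-56608583, plus strand): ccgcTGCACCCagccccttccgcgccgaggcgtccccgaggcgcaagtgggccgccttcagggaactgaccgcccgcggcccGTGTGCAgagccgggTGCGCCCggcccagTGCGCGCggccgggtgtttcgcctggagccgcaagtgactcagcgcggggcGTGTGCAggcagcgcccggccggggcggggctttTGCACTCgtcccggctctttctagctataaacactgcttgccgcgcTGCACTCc
MT1X (chr16:56682310-56682469, plus strand): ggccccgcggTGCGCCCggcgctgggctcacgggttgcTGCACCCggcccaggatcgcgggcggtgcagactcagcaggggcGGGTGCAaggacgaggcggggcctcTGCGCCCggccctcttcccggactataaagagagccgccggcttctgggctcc

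NF-kB targets were lower in MYC as well, led by chemokines. Of 16 measured members 9 were called lower and 0 higher, where 18.3% of all genes were lower, with a median of -0.47 (-0.51 and 11 lower after GC and length correction). The median was -0.28 without MYC replicate 1, and 5 were lower with no FPKM minimum. CXCL8, the neutrophil-attracting chemokine interleukin-8, had the lowest difference of all genes outside small RNA genes. It lies at chr4:74606236-74609433 (plus strand) of GRCh37 and was at 2.23 and 2.54 FPKM in MYC and 18.1 and 21.7 FPKM in siControl, 8.33-fold higher in siControl. The difference was -2.62 (SE 0.119, adjusted p = 8.81e-12). CXCL1, of the same chemokine family, was at 2.82 and 3.86 against 11.5 and 13.2 FPKM, a difference of -1.63 (SE 0.127, adjusted p = 2.39e-08), and CCL20, which attracts lymphocytes through CCR6, was at 38.9 and 42.2 against 79.6 and 87.8 FPKM, a difference of -1.03 (SE 0.0954, adjusted p = 2.28e-07). CXCL2 and CXCL3 were low in every library, at 0.525 and 0.741 against 1.604 and 2.03 FPKM and 0.524 and 0.595 against 1.79 and 1.59 FPKM. ICAM1, an adhesion molecule, and NFKBIA, the inhibitor that NF-kB induces against itself, were lower, at -0.38 (SE 0.103, adjusted p = 0.0104) and -0.55 (SE 0.111, adjusted p = 0.00140). CXCL8, CXCL1 and CCL20 were called in all 15 alternatives, and the call of ICAM1 ended without siControl replicate 1 or siControl replicate 2 (adjusted p = 0.0989 and 0.180).

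The promoters of these 4 CXCL genes, from 100 to 21 bases before the start site, are shown because the genes were lower together, with the match to GGANTTTCC, a core of the NF-kB site read on both strands, in capitals. This motif was chosen after the values were seen. It was held by 8 of 13 list members with a promoter entry, 7 of the 8 being called lower, and by 1.47% of all 27305 promoters.
CXCL8 (chr4:73740469-73740548, plus strand): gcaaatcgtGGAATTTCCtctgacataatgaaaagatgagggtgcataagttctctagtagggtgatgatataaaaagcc
CXCL1 (chr4:73869293-73869372, plus strand): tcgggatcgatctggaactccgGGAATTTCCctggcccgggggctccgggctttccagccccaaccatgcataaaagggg
CXCL2 (chr4:74099216-74099295, minus strand): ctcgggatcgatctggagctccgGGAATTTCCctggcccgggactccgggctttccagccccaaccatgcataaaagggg
CXCL3 (chr4:74038710-74038789, minus strand): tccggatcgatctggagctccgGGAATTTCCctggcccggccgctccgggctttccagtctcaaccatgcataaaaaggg

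Genes of the oxidant and xenobiotic responses were lower in MYC. Of 19 measured NRF2 targets 14 were lower and 1 higher, against 18.3% and 10.8% of all genes (median -0.39, after GC and length correction -0.27, 11 lower and 0 higher). GCLM, the modifier subunit of the enzyme that starts glutathione synthesis, was at 8.55 and 7.37 FPKM in MYC and 18.9 and 19.6 FPKM in siControl, a difference of -1.18 (SE 0.110, adjusted p = 2.61e-07). SLC7A11, the cystine importer, was at 3.55 and 2.28 against 5.49 and 5.74 FPKM, -0.78 (SE 0.136, adjusted p = 4.14e-04), and HMOX1, heme oxygenase, at 22.96 and 29.2 against 40.7 and 43.1 FPKM, -0.67 (SE 0.110, adjusted p = 2.34e-04). Among abundant members FTH1, the ferritin heavy chain, was lower, at -0.38 (SE 0.0700, adjusted p = 6.82e-04). TKT, transketolase, was the member called higher, by 0.38 (SE 0.0946, adjusted p = 0.00624), which was 0.14 (adjusted p = 0.166) after that correction and ended without siControl replicate 1 or siControl replicate 2 (adjusted p = 0.143 and 0.0745). The counts were 0 higher and 10 lower without siControl replicate 1 and 0 higher and 7 lower without siControl replicate 2, and 1 higher and 7 lower with no FPKM minimum. Of 10 measured AHR target and drug metabolizing genes 7 were lower and 0 higher, with a median of -0.50 (-0.27 and 5 lower after that correction). CYP1A1, the monooxygenase that the aryl hydrocarbon receptor induces, was at 7.51 and 8.77 FPKM in MYC and 36.9 and 38.4 FPKM in siControl, a difference of -2.08 (SE 0.108, adjusted p = 3.85e-11). SULT2A1, a sulfotransferase of steroids and bile acids, and ALDH1A1, which oxidizes retinal, were lower, at -0.72 (SE 0.101, adjusted p = 5.21e-05) and -0.62 (SE 0.0744, adjusted p = 8.41e-06). TIPARP, another induced target of this receptor, was lower, at -0.59 (SE 0.113, adjusted p = 8.33e-04).

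Serum-responsive and cytoskeletal genes were lower in part. Of 18 measured YAP and serum response genes 9 were lower and 0 higher, where 18.3% of all genes were lower, with a median of -0.29, and 12 were lower after GC and length correction. The counts were 2 higher and 7 lower without MYC replicate 1, and the median was -0.14 without MYC replicate 1 and -0.44 without MYC replicate 2. MYL9, a myosin light chain, was at 1.17 and 1.76 against 4.52 and 4.79 FPKM, and ANKRD1, a nuclear target of YAP, at 2.004 and 2.61 against 6.002 and 6.94 FPKM, with differences of -1.21 and -1.18. Beta-actin (ACTB), often taken as a stable reference, was lower, at -0.32 (SE 0.0874, adjusted p = 0.0107) with 1153 and 1491 FPKM in MYC and 1563 and 1708 in siControl, a call that ended without MYC replicate 1 (adjusted p = 0.211). Of 22 measured immediate early genes 2 were higher and 9 lower, against 10.8% and 18.3% of all genes, with a median of -0.27, but -0.091 without MYC replicate 1 and -0.42 without MYC replicate 2. After GC and length correction 3 were higher and 8 lower. CCN1, a matricellular protein, was lower, at -0.85 (SE 0.122, adjusted p = 6.05e-05) and the zinc finger factor KLF2, at -0.55 (SE 0.115, adjusted p = 0.00167), while NR4A1, an orphan nuclear receptor, was higher by 0.54 (SE 0.121, adjusted p = 0.00275). The counts were 4 higher and 6 lower without MYC replicate 1, 1 higher and 4 lower without siControl replicate 1 and 1 higher and 4 lower without siControl replicate 2, and 1 higher and 4 lower with no FPKM minimum.

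DUSP1, a phosphatase that switches off p38 and JNK kinases, was lower in the vector control than in the siRNA control, in neither of which UPF1 was altered. It was at 6.23 and 6.83 FPKM in MYC and 10.5 and 10.8 FPKM in siControl, a difference of -0.63 (SE 0.111, adjusted p = 4.24e-04), and was called in all 15 alternatives. The groups did not overlap, as was true of 66.9% of all genes. RASD1, a Ras-like protein induced by glucocorticoid, was at 1.42 and 2.43 FPKM in MYC and 4.76 and 4.29 FPKM in siControl, a difference of -0.94 (SE 0.140, adjusted p = 9.39e-05). Other members of the glucocorticoid list went both ways: of 13 measured, 3 were higher and 6 lower, against 10.8% and 18.3% of all genes. The median was -0.24, and -0.10 after GC and length correction. ZBTB16, a zinc finger repressor, was higher by 0.83 (SE 0.116, adjusted p = 4.95e-05). DUSP1, MT2A and NFKBIA stand in this list too, and its counts were 1 higher and 5 lower without siControl replicate 1 and 1 higher and 4 lower without siControl replicate 2.

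SEC16B, which helps organize export sites of the endoplasmic reticulum, lies at chr1:177893091-177953438 (minus strand) of GRCh37 and was at 0.202 and 0.352 FPKM in MYC and 2.39 and 2.23 FPKM in siControl. The mean was 8.36-fold higher in siControl and the difference -1.38 (SE 0.116, adjusted p = 6.23e-08). CRYZL2P-SEC16B, the readthrough gene that overlaps it, went the other way, at 1.21 and 1.45 FPKM in MYC and 0.188 and 0.435 FPKM in siControl, a difference of 0.84 (SE 0.122, adjusted p = 7.34e-05). Reads of the shared exons could be assigned to either name, so the level of each gene alone is uncertain.

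Stress and growth groups were called at shares of 14.3% to 50.0%, around the 29.1% of all genes. Of 18 measured p53 targets 0 were higher and 6 lower (33.3%), among them MDM2, the ubiquitin ligase of p53, at -0.63 (adjusted p = 6.96e-04), ZMAT3 at -0.57 (adjusted p = 0.00120) and TP53I3 at -0.51 (adjusted p = 0.00221). After GC and length correction 0 were higher and 5 lower. The p53 counts were 1 higher and 7 lower without MYC replicate 1, 0 higher and 3 lower without siControl replicate 1 and 0 higher and 2 lower without siControl replicate 2, and the call of TP53I3 ended without siControl replicate 2 (adjusted p = 0.106). Of 24 ATF4 targets 3 were higher and 6 lower (37.5%), but 5 higher and 6 lower without MYC replicate 1 and 2 higher and 3 lower without siControl replicate 2. GDF15, a secreted stress cytokine, was at 14.8 and 18.5 against 35.7 and 39.5 FPKM, -1.13 (SE 0.112, adjusted p = 6.05e-07), and DDIT4, an mTORC1 inhibitor, was higher by 0.67 (SE 0.117, adjusted p = 4.12e-04). After GC and length correction 4 ATF4 targets were higher and 8 lower. Proliferation genes counted 0 higher and 6 lower of 25, with CDK1, RRM2 and KIF11 at -0.48, -0.46 and -0.44, and after GC and length correction 2 higher and 3 lower, with CDK1 at -0.14 (adjusted p = 0.0802). The call of CDK1 ended without siControl replicate 2 (adjusted p = 0.0811) and that of KIF11 without MYC replicate 2, siControl replicate 1 or siControl replicate 2 (adjusted p = 0.0980, 0.0862 and 0.135), and the counts of this list were 2 higher and 4 lower without MYC replicate 2, 0 higher and 2 lower without siControl replicate 1 and 0 higher and 1 lower without siControl replicate 2. DNA replication genes counted 2 higher and 5 lower of 30, unfolded protein response genes 3 and 3 of 21, heat shock chaperones 2 and 5 of 14, hypoxia and glycolysis genes 1 and 2 of 21, lysosome and autophagy genes 3 and 3 of 19, replication-dependent histone genes 0 and 3 of 12, and cytosolic ribosomal protein genes 1 and 7 of 49. After GC and length correction ribosomal protein genes counted 12 higher and 2 lower, unfolded protein response genes 8 and 2, and heat shock chaperones 3 and 1. Hypoxia and glycolysis genes then counted 5 and 2, lysosome and autophagy genes 3 and 4, histone genes 1 and 2, and DNA replication genes 2 and 5. The median of the ribosomal protein list was 0.11 there, against -0.053 in the main fit. All 7 counts also moved with the library left out. They were 4 and 7, 4 and 5, 2 and 6, 4 and 2, 5 and 4, 0 and 3, and 1 and 10 without MYC replicate 1 and 0 and 5, 1 and 5, 2 and 1, 2 and 2, 2 and 3, 0 and 5, and 0 and 1 without MYC replicate 2. Without siControl replicate 1 they were 0 and 2, 0 and 3, 0 and 1, 0 and 1, 0 and 3, 0 and 0, and 0 and 0, and without siControl replicate 2 0 and 1, 2 and 0, 2 and 0, 1 and 1, 0 and 1, 0 and 0, and 0 and 1. The medians of these 7 lists lay between -0.10 and 0.061, and between -0.21 and 0.13 with 1 library left out.

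Lipid synthesis genes were higher in MYC. Of 16 measured fatty acid synthesis genes 11 were higher and 1 lower, where 10.8% of all genes were higher, with a median of 0.45, and 0.34 with 11 higher and 2 lower after GC and length correction. The counts were 7 higher and 1 lower without siControl replicate 1 and 7 higher and 1 lower without siControl replicate 2. FADS2, the desaturase that begins the synthesis of long polyunsaturated fatty acids, had the largest positive difference outside small RNA genes. It lies at chr11:61560452-61634826 (plus strand) of GRCh37 and was at 513 and 517 FPKM in MYC and 196 and 209 FPKM in siControl, 2.54-fold higher in MYC. The difference was 1.34 (SE 0.0765, adjusted p = 1.93e-10). Its neighbour in the pathway FADS1 was at 104 and 98.7 against 51.9 and 54.5 FPKM, and SCD, which makes monounsaturated fatty acids, at 713 and 724 against 358 and 379 FPKM, with differences of 0.92 (SE 0.0904, adjusted p = 5.74e-07) and 0.96 (SE 0.0724, adjusted p = 1.36e-08). PNPLA3, a lipid droplet hydrolase, was at 10.1 and 11.4 against 4.67 and 4.56 FPKM, 1.07 (SE 0.114, adjusted p = 1.77e-06). FASN, fatty acid synthase, was at 185 and 257 against 125 and 126 FPKM, and SREBF1, the factor that drives these genes, at 26.98 and 34.1 against 18.9 and 19.7 FPKM. Their differences were 0.79 and 0.63, and 0.34 (adjusted p = 0.0101) and 0.32 (adjusted p = 0.00711) after that correction. Both transcripts are rich in GC, at 65.3% and 63.2%. The member lower in MYC was ME1, malic enzyme, at 17.3 and 17.96 against 27.96 and 30.5 FPKM, -0.70 (SE 0.102, adjusted p = 7.82e-05), which stands in the NRF2 list too. FADS2, FADS1, SCD, PNPLA3, FASN, SREBF1 and ME1 were called in all 15 alternatives.

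Cholesterol synthesis and uptake genes were higher in part. Of 26 measured members 11 were higher and 3 lower, against 10.8% and 18.3% of all genes, with a median of 0.16. After GC and length correction 18 were higher and 0 lower, where 1582 of 12683 genes were higher and 1500 lower. The counts were 10 higher and 5 lower without MYC replicate 1, 12 higher and 1 lower without MYC replicate 2, 4 higher and 0 lower without siControl replicate 1 and 7 higher and 0 lower without siControl replicate 2, and 5 higher and 0 lower with no FPKM minimum. TM7SF2 and DHCR7, sterol reductases, were at 23.95 and 22.7 against 13.98 and 15.4 FPKM and 250.3 and 256 against 171 and 175 FPKM, with differences of 0.63 (SE 0.105, adjusted p = 2.60e-04) and 0.55 (SE 0.0794, adjusted p = 7.34e-05). Both were called in all 15 alternatives. The factor SREBF2 (0.43, adjusted p = 0.00320) and the isomerase EBP (0.27, adjusted p = 0.00996) were higher as well. The call of SREBF2 ended without siControl replicate 1 (adjusted p = 0.0800) and that of EBP without siControl replicate 1 or siControl replicate 2 (adjusted p = 0.127 and 0.0650). GGPS1, which makes geranylgeranyl diphosphate, was lower, at -0.45 (SE 0.117, adjusted p = 0.00740), a call that ended without siControl replicate 1 or siControl replicate 2 (adjusted p = 0.0753 and 0.191). The core TCACNCCAC of a sterol response element, read on both strands, was held by 1 of 19 cholesterol list promoters, that of SREBF2, by 0 of 13 of the fatty acid list and by 0.875% of all promoters.

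Other genes with large differences belonged to no list. In the positive direction stood SEMA6B, a transmembrane semaphorin, at 36.7 and 41.8 against 16.2 and 17.2 FPKM. SLC16A3, the lactate exporter MCT4, was at 24.7 and 26.8 against 11.7 and 12.2 FPKM, and FSCN1, which bundles actin, at 19.2 and 22.2 against 10.2 and 10.03 FPKM. Their differences were 1.18, 1.04 and 0.96, and 0.78 (adjusted p = 8.41e-04), 0.75 (adjusted p = 0.00139) and 0.71 (adjusted p = 0.00124) after GC and length correction. FIGNL2, CCDC183, the lysosomal protease CTSF and the histidine-degrading enzyme HAL differed by 1.06, 0.97, 0.96 and 0.96. In the negative direction stood the cytokine IL32, at 3.76 and 3.65 against 15.9 and 15.6 FPKM, UBD, a ubiquitin-like protein of the immune response, at 1.66 and 2.29 against 8.503 and 9.61 FPKM, and IL18, a cytokine released by inflammasomes, at 2.82 and 2.95 against 10.9 and 12.4 FPKM. HABP2, a plasma protease that binds hyaluronan, was at 7.71 and 9.58 against 28.3 and 30.3 FPKM. All 4 had adjusted p of 5.93e-09 or less, and their differences ran from -1.83 for IL32 to -1.66 for HABP2.

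Most of the genes that answer foreign nucleic acid were not measured, being either unlisted or below the FPKM minimum. Every listed gene had a value above 0 in all 8 libraries, and the level of an unlisted gene is not known here. Of 41 interferon-induced genes 20 were listed and 15 measured. Of the 15, 0 were called higher and 3 lower, against 10.8% and 18.3% of all genes. Their median was -0.13, but -0.23 without siControl replicate 1 and -0.032 without siControl replicate 2. After GC and length correction 1 was higher and 3 lower. CXCL10, a chemokine, was at 0.197 and 0.389 FPKM in MYC and 1.67 and 1.92 FPKM in siControl, a difference of -1.11 (SE 0.119, adjusted p = 1.64e-06). ISG15, a ubiquitin-like modifier, and DTX3L, a ubiquitin ligase, were lower, at -0.33 (adjusted p = 0.0340) and -0.32 (adjusted p = 0.0446). Their calls ended without siControl replicate 1 or siControl replicate 2 (adjusted p = 0.188 and 0.402) and without siControl replicate 1 or siControl replicate 2 (adjusted p = 0.146 and 0.473), and the counts were 1 higher and 4 lower without MYC replicate 1, 0 higher and 1 lower without siControl replicate 1 and 0 higher and 1 lower without siControl replicate 2. The abundant member MX2 had an interval of -0.15 to 0.26. Of 22 nucleic acid sensors and their signalling proteins 9 were listed and 6 measured, with 2 called (33.3%, against 29.1% of all genes). The kinase TBK1 was lower, at -0.46 (adjusted p = 0.00888), and the RNA-editing enzyme ADAR higher, at 0.26 (adjusted p = 0.0471), while the factor IRF3 was at 0.19 with an interval of -0.031 to 0.41. The call of TBK1 ended without siControl replicate 2 (adjusted p = 0.179) and that of ADAR without MYC replicate 2, siControl replicate 1 or siControl replicate 2 (adjusted p = 0.193, 0.247 and 0.338), and the sensor counts were 3 higher and 1 lower without MYC replicate 1, 0 higher and 1 lower without MYC replicate 2, 0 higher and 1 lower without siControl replicate 1 and 0 higher and 0 lower without siControl replicate 2. After GC and length correction TBK1 was at -0.18 (adjusted p = 0.111) and ADAR at 0.16 (adjusted p = 0.0488).

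The proteins that use siRNA and those of nonsense-mediated mRNA decay (NMD), the pathway of UPF1, were read against the 29.1% of all genes called. Of 16 genes of RNA interference 1 was higher and 2 lower (18.8%), with a median of -0.079, but 0.025 without MYC replicate 1 and -0.041 without siControl replicate 2. AGO1, an Argonaute protein, was at 14.6 and 17.1 against 12.4 and 12.4 FPKM (0.33, adjusted p = 0.0309). After GC and length correction 0 members of this list were higher and 2 lower, so AGO1 was no longer called higher. TSNAX and TSN, the subunits of the nuclease C3PO, were at 8.92 and 7.72 against 14.3 and 15.6 FPKM and 17.8 and 18.2 against 21.7 and 24.1 FPKM, with differences of -0.78 (SE 0.113, adjusted p = 6.84e-05) and -0.33 (SE 0.104, adjusted p = 0.0235), of which TSNAX was called in all 15 alternatives. The calls of AGO1 and TSN ended without MYC replicate 2, siControl replicate 1 or siControl replicate 2 (adjusted p = 0.112, 0.242 and 0.261) and without siControl replicate 1 or siControl replicate 2 (adjusted p = 0.121 and 0.389), and the counts were 4 higher and 2 lower without MYC replicate 1, 0 higher and 1 lower without siControl replicate 1 and 0 higher and 1 lower without siControl replicate 2. Of 17 NMD factors 1 was higher and 1 lower (11.8%), and the counts were 3 higher and 3 lower without MYC replicate 1, 1 higher and 2 lower without MYC replicate 2, 0 higher and 0 lower without siControl replicate 1 and 0 higher and 0 lower without siControl replicate 2. UPF1, the helicase depleted or overexpressed in the other libraries, was at 45.1 and 57.4 FPKM in MYC and 44.5 and 47.4 FPKM in siControl, a difference of 0.15 (SE 0.108, adjusted p = 0.320) with an interval of -0.078 to 0.37. After GC and length correction 2 NMD factors were called higher and 0 lower, so the main call of UPF2 as lower was lost there. NBAS was higher at 0.45 (adjusted p = 0.00619) and UPF2 lower at -0.35 (adjusted p = 0.0247), calls that ended without siControl replicate 1 or siControl replicate 2 (adjusted p = 0.129 and 0.125) and without siControl replicate 1 or siControl replicate 2 (adjusted p = 0.208 and 0.290). Of 6 NMD targets in the RT-qPCR list, TBL2 was higher (0.45, adjusted p = 0.00548) and EZH2 lower (-0.28, adjusted p = 0.0475), which ended without siControl replicate 1 or siControl replicate 2 (adjusted p = 0.184 and 0.0619) and without MYC replicate 2, siControl replicate 1 or siControl replicate 2 (adjusted p = 0.0606, 0.159 and 0.515), and the counts were 1 higher and 3 lower without MYC replicate 2, 0 higher and 0 lower without siControl replicate 1 and 0 higher and 0 lower without siControl replicate 2. The MYC gene itself was at 15.2 and 17.8 FPKM in MYC and 16.7 and 17.7 FPKM in siControl, a difference of -0.063 (adjusted p = 0.699): the vector codes for the MYC tag and not for the gene.

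Small RNA genes and joined names varied widely between replicates. Of 439 small RNA genes tested (by name MIR, SNOR, SCARNA, RNU, RNVU or RN7) 150 (79 higher and 71 lower) were called. Among all genes 29.1% were called, 10.8% higher and 18.3% lower. RN7SK, a nuclear RNA that holds back transcription elongation, was at 3.77 and 1.58 FPKM in MYC and 61.1 and 7.21 FPKM in siControl, RMRP, the RNA of RNase MRP, at 2.26 and 1.24 FPKM in MYC and 27.9 and 3.43 FPKM in siControl, and the spliceosomal RNU1-4 at 0.230 and 0.394 FPKM in MYC and 9.24 and 0.771 FPKM in siControl. RPPH1, the RNA of RNase P, was at 0.889 and 0.392 FPKM in MYC and 9.34 and 1.13 FPKM in siControl. In all 4 of these siControl replicate 1 was at least 4-fold above siControl replicate 2, and both lay above the MYC libraries. Without siControl replicate 1 the differences went from -2.69 to -1.23 for RN7SK, from -2.07 to -0.71 for RMRP, from -1.70 to -0.44 for RNU1-4 and from -1.53 to -0.40 for RPPH1, whose call ended (adjusted p = 0.0710). With robust eBayes, which sets genes of unusual spread apart, none of the 4 was called (adjusted p = 0.354, 0.415, 0.458 and 0.463). The joined name BLOC1S5-TXNDC5 was at 0.0240 and 0.0247 FPKM in MYC and 17.9989 and 0.0421 FPKM in siControl, so its difference of -2.12 rests on 1 library and was -0.025 without it. The mitochondrial serine tRNA TRNS1, at 2664 and 2323 FPKM in MYC and 709.7 and 2264 FPKM in siControl, was higher by 0.97 (SE 0.268, adjusted p = 0.0107) and at 0.14 (adjusted p = 0.265) without that library. In the other direction MIR1281, MIR4523 and SNORD134 were at 2.99 and 3.56 against 1.03 and 0.352 FPKM, 1.84 and 2.09971 against 0.480 and 0.0994 FPKM and 2.39 and 4.902 against 0.929 and 1.16 FPKM. A library of polyadenylated RNA captures mature forms of such genes poorly, and whether these values come from overlapping transcripts was not tested.

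The same experiments were then compared with libraries that share no sample with the controls. MYC-UPF1 libraries against siUPF1 libraries gave 629 called genes (4.71%) of the same 13359, and these also differ in UPF1 itself, by 6.90. Of the 3883 genes called between the controls 3262 (84.0%) had the same sign between the treated libraries, and 404 were called in the same direction, which is 10.4% of the control calls and 64.2% of the treated calls. By direction, of the 1437 higher calls 1004 (69.9%) had the same sign and 68 (4.73%) were called again, and of the 2446 lower calls 2258 (92.3%) and 336 (13.7%). The median over all genes was -0.12 between the treated libraries, where 94 genes were called higher and 535 lower, and -0.057 between the controls. The share of all 13359 genes with the same sign was not counted, so these same-sign shares have no background beside them. The 5 genes called in opposite directions were CDKN1C, HOXD1, RHOD, PRTFDC1 and SERF2-C15ORF63. The control call of CDKN1C ended without MYC replicate 2, siControl replicate 1 or siControl replicate 2 (adjusted p = 0.134, 0.238 and 0.259), that of HOXD1 without siControl replicate 2 (adjusted p = 0.0664) and that of RHOD without MYC replicate 2, siControl replicate 1 or siControl replicate 2 (adjusted p = 0.105, 0.343 and 0.221). Across the 13359 genes the 2 differences correlated at 0.541, as a description, since genes of the same 8 libraries are not independent.

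Recurrence was also read list by list. Over all genes 404 of 13359 were called in the same direction in both comparisons. Metallothioneins had 7 of 10 members called lower in both and a median of -1.43 between the treated libraries. YAP and serum response genes had 8 of 18 (median -0.55), NF-kB targets 6 of 16 (-0.49), NRF2 targets 6 of 19 (-0.31), and fatty acid synthesis genes 5 of 16 called higher in both (0.37). Other lists recurred less. Secreted liver proteins had 2 of 26 (0.15) and AHR target and drug metabolizing genes 2 of 10 (-0.27). Cholesterol synthesis genes had 1 of 26 (0.065), immediate early genes 1 of 22 (-0.084) and glucocorticoid-induced genes 1 of 13 (0.010). Oncofetal genes, liver transcription factors and interferon-induced genes had 0, with treated medians of 0.062, -0.066 and -0.30, against -0.12 over all genes. CXCL8 was at -2.03 (adjusted p = 0.00144), CYP1A1 at -2.65 (adjusted p = 2.97e-05), MT2A at -2.10 (adjusted p = 0.00144) and FADS2 at 1.11 (adjusted p = 0.00177) between the treated libraries. Mitochondrial mRNAs had 0 calls there (6 higher and 1 lower at an unadjusted p under 0.05), with a median of 0.54. They held 12.3% of the summed FPKM in siUPF1 replicate 2, against 19.4% in siUPF1 replicate 1 and 24.01% and 20.01% in the MYC-UPF1 libraries, and the part of that library in this median was not tested. Some genes of the control comparison had other values: DUSP1 was at 0.50 (adjusted p = 0.0572), SEC16B at -0.13 (adjusted p = 0.575), RASD1 at 0.49 (adjusted p = 0.0627), CCL20 at 0.062 (adjusted p = 0.810) and SEMA6B at 0.29 (adjusted p = 0.289). The difference between the 2 comparisons was itself tested over all 8 libraries, and 3 genes (0.0225%) passed: UPF1, PRTFDC1 and SERF2-C15ORF63, with 2027 genes (15.2%) at an unadjusted p under 0.05. For DUSP1 the adjusted p of this test was 0.0502, for SEC16B 0.0680, for RASD1 0.0726 and for CCL20 0.0941.

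**Figure D4:**
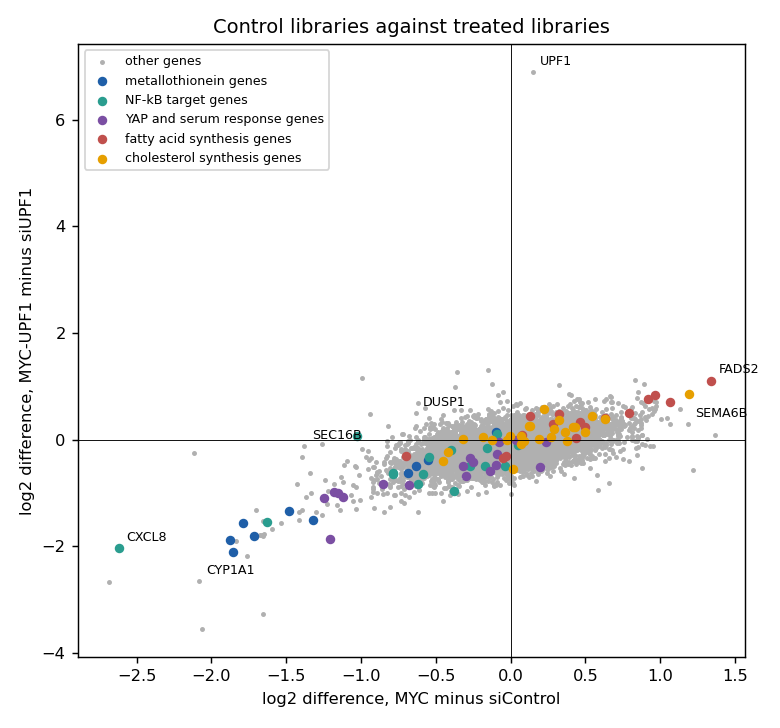
Log2 difference between the treated libraries, MYC-UPF1 minus siUPF1 (y axis), against that between the control libraries, MYC minus siControl (x axis), for 13359 genes. Colours mark 5 gene lists and grey points all other genes; metallothioneins and CXCL8 lie low in both, fatty acid synthesis genes mostly high in both, UPF1 stands at 6.90 on the y axis, and DUSP1 and SEC16B, at -0.63 and -1.38 on the x axis, stand at 0.50 and -0.13 on the y axis.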

How the data were processed

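Polyadenylated RNA of Huh7 cells was sequenced in 8 libraries, of which the 2 MYC and 2 siControl libraries were compared here and the 2 MYC-UPF1 and 2 siUPF1 libraries were used for recurrence. The deposited values are FPKM per gene. Per the submitters' processing notes and the study's methods, reads were checked with FastQC 0.11.7, trimmed with Trimmomatic 0.38, aligned with HISAT2 2.1.0 to hg19 and assembled with StringTie 1.3.4d (the notes also list mm10 and CASAVA), and the authors deposited 1 FPKM table per experiment. Single-library files equal these tables at 17076 of 17076 genes, and 0 columns belong to no sample. FPKM keep no read counts here, so depth is unknown and no counting interval is given. Each table was made in its own experiment, so levels set across them carry any difference in how the tables were made.

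Tables were joined on gene symbol, and genes with a mean of at least 0.5 FPKM were tested on log2(FPKM + 1) with limma 3.58.1 (R 4.3.3, eBayes with trend, two-sided, Benjamini-Hochberg over all genes tested). The same fit was made for the treated libraries, and an interaction term over all 8 libraries tested the difference between both comparisons. Transcript GC content and length and GRCh37 positions came from GENCODE (15741 of 17076 symbols matched) and promoters from RefSeq (GRCh38.p14). The GC and length trend was removed per library by loess (span 0.5). The script was tested on simulated data of 13359 genes, 200 of them changed by 0.4 or by 1 on the log2 scale. At 0.4, 14% of the changed genes were recovered and 15.2% of the calls were wrong. At 1, 100% were recovered and 13.4% of the calls were wrong. Both shares of wrong calls lay above the threshold of 0.05. Fewer genes changed there than were called here, so these shares may not hold for the 3883 calls. Members and gene lists were chosen with earlier results of these data known. Named genes were the markers AFP, ALB, DUSP1 and SEC16B with UPF1, MYC and RASD1, the 20 genes of highest mean FPKM, the 12 largest differences each way among called genes whose groups do not overlap (small RNA and joined names apart, 3 each way), and per list the 3 largest called differences and the 2 most abundant members. Some genes of the rule are not reported here. Of 126 genes named in the text, 28 lie outside that rule and were chosen after their values were seen: MT1X, MT1G, MT1A, MT1L, SLC30A1, MTF1, CXCL2, CXCL3, NFKBIA, HMOX1, TKT, TIPARP, NR4A1, FADS1, FASN, SREBF1, GGPS1, SREBF2, SERPINA1, APOH, RPPH1, PRTFDC1, SERF2-C15ORF63, CRYZL2P-SEC16B, FGA, CDKN1C, HOXD1 and RHOD. Alternatives were another pseudocount (0.1), other minima, other scalings, all 8 libraries in 1 fit, a block for the replicate number, a robust eBayes (chosen after seeing the data) and one with no trend, the GC and length correction, and each library left out.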

Additional observations from a re-analysis of the deposited data

Results flagged for a closer look

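The difference between the treated libraries and the control libraries was tested with an interaction term in limma, and 3 genes passed after Benjamini-Hochberg adjustment. For UPF1 the treated difference minus the control difference was 6.75 (adjusted p = 2.71e-08) for the gene that those libraries overexpress or deplete. For PRTFDC1 it was 1.36 (adjusted p = 0.0232), from a control difference of -0.37 and a treated difference of 0.99, and the control call of PRTFDC1 ended without siControl replicate 1 or siControl replicate 2 (adjusted p = 0.0872 and 0.441). For the joined name SERF2-C15ORF63 it was -1.41 (adjusted p = 0.0232), from 0.88 and -0.53, with 2.03 and 2.47 FPKM in MYC and 0.855 and 0.677 FPKM in siControl. Groups of 2 libraries are too small for a test of single outlying libraries.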

How the results depend on the processing

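The count of called genes, 3883 as given, was 1310 (506 higher and 804 lower in MYC) with no FPKM minimum and 2390 (938 and 1452) with all 8 libraries in 1 fit. Over the fits that leave out 1 library it ran from 1237 to 5792, with 428 to 2543 higher and 635 to 3249 lower, the low counts coming without a siControl library and the highest without MYC replicate 1. Genes lower in MYC numbered 1572 after quantile normalization, 1334 after median centring and 1500 after GC and length correction, which also shift the median of all genes from -0.057 to -0.0061, 0.026 and -0.0037. Intervals inside -1 to 1 were found for 7613 genes and inside -0.5 to 0.5 for 5193 genes at a minimum of 5 FPKM, where fewer genes were tested. Calls shared with the treated libraries numbered 259 after quantile normalization in place of 404. For the other counts the cause was not tested.

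With the replicate number as a block 4753 genes were called (1771 higher and 2982 lower). The deviations of same-numbered libraries correlated at 0.00999 across 13359 genes, so the numbers were not taken to pair the libraries. Robust eBayes, chosen after seeing the data, called 4448.

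Values that changed sign were AFP at -0.11, ALB at -0.18 and COX3 at -0.15 under quantile normalization, UPF1 at -0.12, HNF4A at -0.097 and LYZ at 0.11 after GC and length correction, and MYC at 0.020 and GAPDH at 0.072 after median centring. With 1 library left out AFP ran from -0.072 (without MYC replicate 1) to 0.10, with -0.053 without siControl replicate 1, UPF1 from -0.024 (without MYC replicate 2) to 0.32, MYC from -0.17 to 0.046 (without MYC replicate 1) and HNF4A from -0.084 (without MYC replicate 2) to 0.15. Of the values of single genes under alternatives, 1611 kept direction and call, 210 kept direction but lost the call, 12 gained a call and these 13 turned.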
